A study of Mus musculus with 10 samples.

Results

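The AP-1 and EGR immediate early factors examined here are 10 genes of transcription factors: Fos, Fosb, Fosl1, Fosl2, Jun, Junb, Jund, Egr1, Egr2 and Egr3. They were chosen by gene symbol, and every probe set carrying one of these symbols in the platform annotation was taken. That gave 16 of the 45101 probe sets on the array and 10 of the 18193 genes named there. Each of 6 members had 2 probe sets and each of the other 4 had 1.

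The samples were aortas of male mice of the strain C57BL/6, either wild type or Ptgds-/-, and total RNA was hybridised to Affymetrix arrays. Ptgds encodes lipocalin-type prostaglandin D synthase, an enzyme that makes prostaglandin D2. Of 5 wild type and 5 knockout samples, labelled as biological replicates, wild type replicate 2 had no values and was excluded by the submitters. This left 4 wild type arrays (replicates 1, 3, 4 and 5) against 5 knockout arrays. All mice lived in groups on chow under a 12 hour light and 12 hour dark cycle, and no other treatment is named. The sources used here give no age, no hour of dissection, no deleted exons, no substrain and no statement on whether an array holds 1 aorta or several.

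AP-1 is a pair of proteins with a basic region that holds DNA and a leucine zipper that joins the partners. FOS proteins pair with JUN proteins, and JUN proteins can also pair with each other. EGR proteins bind DNA as single molecules through zinc fingers. Many of these genes have low transcript levels in resting cells, are induced within minutes by growth factors, stretch, injury or calcium entry through ERK, p38, SRF and CREB, and lose their short-lived RNA soon after. In the vessel wall they are known as early responders to balloon injury, to changes of pressure and to tissue handling.

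Values are read as log2, and a difference of 1 is a doubling. The check of the genotype was clear: Ptgds lay between 8.68 and 10.31 on the wild type arrays and between 3.67 and 4.40 on the knockout arrays. Array medians ran from 5.88 to 5.97. Smooth muscle markers were present as the tissue label says, with 6 of 6 over a log2 value of 4 on all 9 arrays. Wild type replicate 3 correlated least with the others (mean r 0.981, against 0.989 to 0.992). Wild type replicate 1 correlated with the others as well as any array, at a mean r of 0.992. Yet it was the lowest wild type array in the mean of the members and in that of other immediate early genes. Results are therefore given with and without it. Knockout replicates 1 and 2 were about as low in the members, and they were kept. Wild type replicate 1 was singled out on values of the genes under test, so calls made without it are not independent support.

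Across the genotypes, none of the 10 members passed the test. All 10 were tested, since each exceeded the floor, a log2 value of 4, on 4 arrays or more. The comparison was a limma fit across 14321 genes with a Benjamini-Hochberg adjusted p threshold of 0.05, which 0.0559% of all genes passed. Over all 26504 tested probe sets 0.0792% passed, and 0 of the 15 tested probe sets of the members did. At an unadjusted p under 0.05 (limma) stood 3 of the 15: 1 of Fosl1 and 1 of Fosb, both lower in the knockout as were 8.38% of all probe sets, and the dim one of Jund, higher as were 10.5%. Leaving out wild type replicate 1, 3 of the 15 passed, against 6.31% of all. Knockout means lay lower for 10 of 10 members, where 43.3% of all tested genes had a lower knockout mean. At an unadjusted p under 0.05 there were 2 members, Fosl1 and Fosb, both lower, against 7.12% of all genes lower at that p. The median difference of the members was −0.14 and their mean −0.41, beside a median of 0.027 over all tested genes. The sizes were unequal: the FOS relatives Fosl1 and Fosb lay lower by far more than Fos, Jun, Junb or Egr1, whose means nearly matched. Differences between members were not tested.

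**Figure D1:**
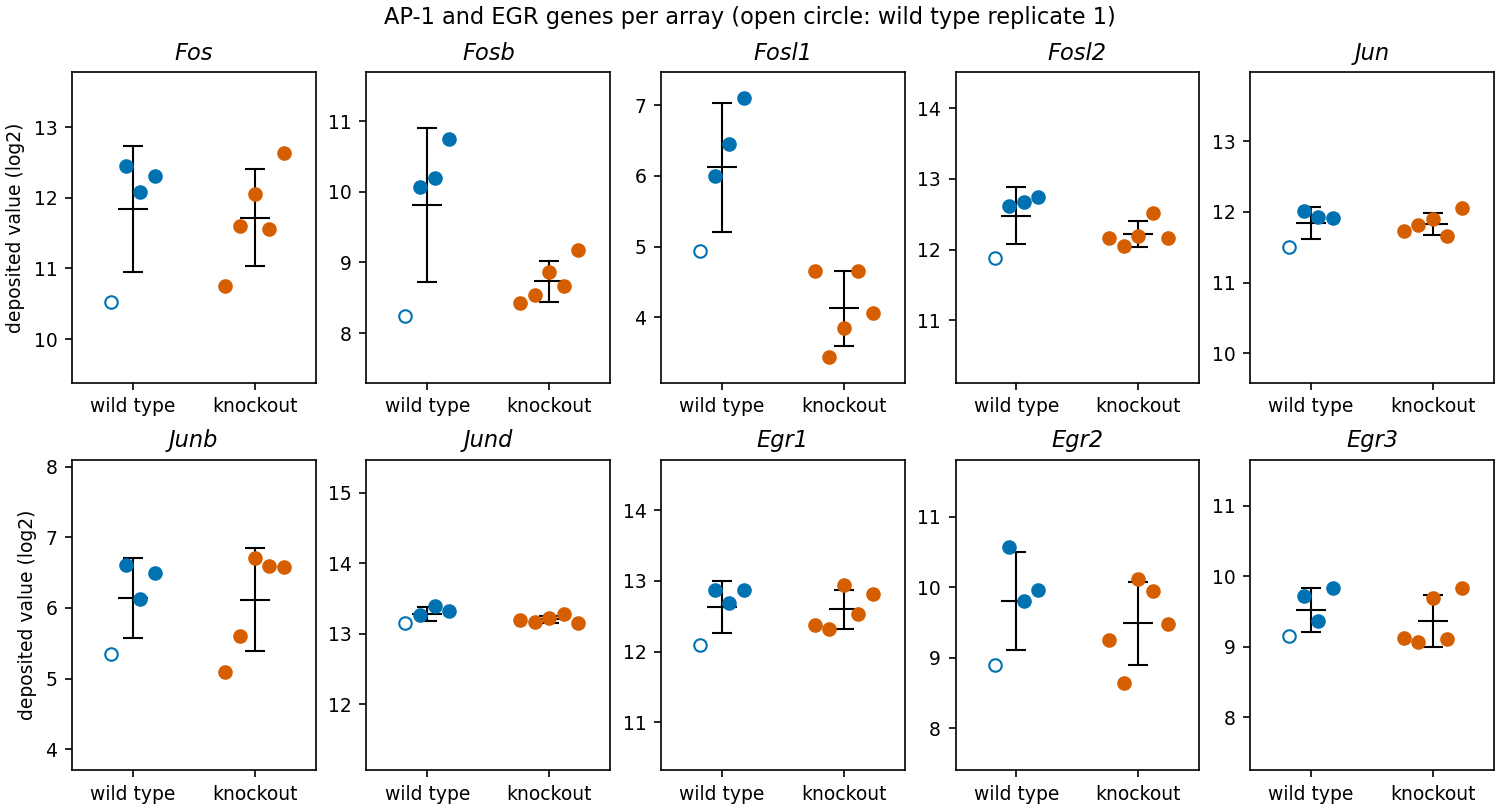
Deposited log2 value of each AP-1 and EGR gene (1 probe set per gene) on 4 wild type and 5 knockout arrays; points are arrays, the open circle is wild type replicate 1, and bars are the mean and SD. Every panel spans the same number of log2 units, and all 5 knockout points lie below all 4 wild type points for Fosl1 and for no other gene shown.

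Fos encodes the founding FOS protein, which has to pair with a JUN protein to bind DNA. It stood at 10.52, 12.45, 12.08 and 12.31 on wild type replicates 1, 3, 4 and 5, and at 10.76, 11.60, 12.05, 11.56 and 12.64 on knockout replicates 1 to 5. The highest array was a knockout and the lowest a wild type, so the groups overlapped over almost their whole range. The means were 11.84 ± 0.89 (SD, n = 4) and 11.72 ± 0.69 (SD, n = 5). The difference was −0.12 (SE 0.46, 95% interval −1.17 to 0.93), with an adjusted p of 0.911 (limma). Without wild type replicate 1 it was −0.56 (SE 0.37, adjusted p 0.375), while without knockout replicate 1 it turned to 0.12.

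Fosb encodes a FOS protein whose splice form ΔFosB is long-lived. Its values on the wild type arrays were 8.24, 10.07, 10.20 and 10.74, and on the knockout arrays 8.42, 8.54, 8.86, 8.66 and 9.17. Replicate 1 was the lowest of all 9 arrays, and the other 3 wild type arrays lay above every knockout array. The means were 9.81 ± 1.09 (SD, n = 4) and 8.73 ± 0.30 (SD, n = 5). The difference of −1.08 (SE 0.44, 95% interval −2.08 to −0.086), a 2.12-fold lower level in the knockout, did not pass (adjusted p 0.222, limma). With replicate 1 left out of the wild type, the mean of the remaining 3 was 10.34 ± 0.36 (SD). The difference was then −1.60 (SE 0.21), or 3.04-fold lower, and passed with an adjusted p of 0.0112 (limma), the lowest of 18 alternatives, which ran up to 0.454. In that fit 7.34% of all genes passed, and 2.1% passed as lower in the knockout, so calls were common there. With the lower wild type array gone, 3 of the 10 members were separated between the genotypes (Fosb, Fosl1 and Fosl2), against 6.02% of all genes in this direction.

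Fos and Fosb are shown with the 250 bases before their start sites, since both are classical early genes. A link between these sequences and the genotype differences was not tested. Sequences are from RefSeq (GRCm38.p6), and capitals mark motif matches on either strand. Windows of 7 of the 10 members were searched, and none was searched for Fosl1, Egr1 and Egr3. The Fos window is chr12:85473640-85473889 (plus strand) and the Fosb window chr7:19310046-19310295 (minus strand), both directly before the annotated start.
Fos: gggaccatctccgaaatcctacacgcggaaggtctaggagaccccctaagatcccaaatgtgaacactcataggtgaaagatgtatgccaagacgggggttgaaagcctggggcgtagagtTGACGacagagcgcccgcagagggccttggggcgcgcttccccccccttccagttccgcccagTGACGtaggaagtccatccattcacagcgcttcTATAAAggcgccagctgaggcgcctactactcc
Fosb: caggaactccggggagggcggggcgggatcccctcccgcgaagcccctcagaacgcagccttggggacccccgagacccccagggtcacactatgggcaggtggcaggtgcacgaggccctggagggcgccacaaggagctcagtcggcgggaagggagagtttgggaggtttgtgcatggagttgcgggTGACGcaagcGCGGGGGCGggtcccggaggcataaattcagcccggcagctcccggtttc
Both hold the core of the cAMP response element, TGACG, bound by CREB and ATF proteins: in Fos at 129 to 125 and at 66 to 62 bases before the start, and in Fosb at 60 to 56. Of 32851 windows of this length, 17.8% hold it. Fos has a TATA box (TATAAA) at 33 to 28, a motif in 12.4% of windows. Fosb has a match to the EGR site GCGNGGGCG at 50 to 42, found in 4.7% of windows. The full AP-1 site TGANTCA (6.75% of windows), the full element TGACGTCA (1.55%) and the CArG box of SRF (1.47%) have no match in these letters. The motifs overlap where TGACGTCA holds TGACG, and the matches describe letters only.

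Fosl1 encodes FRA-1, a FOS relative without the activation domain of FOS that is found in migrating and injured smooth muscle. Probe set 1417487_at read 4.94, 6.00, 6.45 and 7.11 on the wild type arrays and 4.65, 3.43, 3.84, 4.65 and 4.06 on the knockout arrays. The groups did not overlap: the highest knockout value, 4.65, was under the lowest wild type value, that of replicate 1. Among all tested genes 2.16% were separated in this direction. The means were 6.12 ± 0.91 (SD, n = 4) and 4.13 ± 0.53 (SD, n = 5), a difference of −2.0 (SE 0.43, 95% interval −2.96 to −1.04). That is 3.99-fold lower, with an unadjusted p of 0.0011 and an adjusted p of 0.105 (limma), so the difference did not pass. Without wild type replicate 1 it was −2.39 (SE 0.34) and passed, with an adjusted p of 0.0131 (limma), where the 17 alternatives that tested it ran up to 0.357.
Only 3 of the 5 knockout arrays were over the floor of 4, against 4 of 4 wild type arrays. The size of the difference therefore depends on the background. The other probe set of the gene, 1417488_at, lay between 3.23 and 3.78 on all 9 arrays, under the floor, and was not tested. The Fosl1 difference rests on 1 dim probe set.

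Fosl2 encodes FRA-2, a FOS relative active in fibroblasts and in vascular remodelling. On its brighter probe set it stood at 11.88, 12.61, 12.67 and 12.74 in wild type and at 12.17, 12.05, 12.19, 12.52 and 12.16 in the knockout. Wild type replicate 1 lay below every knockout array and the other 3 wild type arrays above them all. The difference was −0.26 (SE 0.18, 95% interval −0.66 to 0.15, adjusted p 0.451, limma). Without replicate 1 it was −0.46 (SE 0.10), a 1.37-fold lower level, and lay just inside the threshold (adjusted p 0.0415, limma; up to 0.757 over 18 alternatives). The dimmer probe set 1422931_at, at 5.72 to 7.23 in wild type and 5.88 to 7.76 in the knockout, differed by −0.077 (SE 0.41, adjusted p 0.940 over all probe sets, limma), and by −0.42 without replicate 1 (adjusted p 0.513). Its highest array was knockout replicate 5, which was not high on the brighter probe set. The correlation between both probe sets over the 9 arrays was 0.53.

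Jun encodes c-Jun, the partner that lets FOS proteins bind DNA and a target of JNK. Probe set 1448694_at read 11.50, 12.01, 11.93 and 11.92 in wild type and 11.73, 11.81, 11.89, 11.65 and 12.05 in the knockout. Apart from a low replicate 1, the arrays lay within a narrow band that both genotypes shared. The difference was −0.011 (SE 0.12, 95% interval −0.28 to 0.26, adjusted p 0.970, limma). The other probe set, 1417409_at, gave 9.26, 10.24, 10.00 and 10.05 in wild type and 9.49, 9.79, 9.63, 9.50 and 9.96 in the knockout. Its difference was −0.21 (SE 0.19, adjusted p 0.574 over all probe sets, limma). Without replicate 1 its wild type arrays all lay above the knockout arrays. Of all genes, at 1 probe set per gene, 6.02% were separated in this direction without that array. The difference of this probe set was then −0.43 (SE 0.12, adjusted p 0.080, limma), which did not pass. Both probe sets followed each other over the arrays (r 0.90), while the size of the genotype difference was not the same on both.

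The Jun promoter is known for an element that c-Jun and ATF2 bind, so that the gene can drive itself. The 250 bases before its start are chr4:95052223-95052472 (minus strand, GRCm38.p6).
Jun: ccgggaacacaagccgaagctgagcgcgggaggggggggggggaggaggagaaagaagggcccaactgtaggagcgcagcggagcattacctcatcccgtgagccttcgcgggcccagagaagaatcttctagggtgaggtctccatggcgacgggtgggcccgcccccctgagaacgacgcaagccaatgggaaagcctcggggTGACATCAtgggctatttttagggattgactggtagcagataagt
The capitals mark TGACATCA, at 45 to 38 bases before the start, a motif that 2.93% of all windows hold. No other motif searched matched there.

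Junb encodes JunB, a JUN protein that often opposes c-Jun. It stood at 5.34, 6.61, 6.12 and 6.50 in wild type and at 5.10, 5.61, 6.71, 6.60 and 6.58 in the knockout. Knockout replicates 1 and 2 and wild type replicate 1 were low and the other 6 arrays high, with both genotypes in each set. The difference was −0.023 (SE 0.39, 95% interval −0.91 to 0.86, adjusted p 0.980, limma). It turned positive, to 0.23, without knockout replicate 1.

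Jund encodes JunD, the JUN protein that is present in resting cells. Its brighter probe set 1449117_at read 13.15, 13.27, 13.39 and 13.33 in wild type and 13.20, 13.17, 13.23, 13.27 and 13.16 in the knockout. It varied least of the 10 members, with an SD of 0.10 in wild type and 0.048 in the knockout. The difference was −0.076 (SE 0.062, 95% interval −0.22 to 0.063, adjusted p 0.513, limma). The dimmer probe set 1440265_at ran the other way, at 5.60, 5.80, 5.93 and 5.87 in wild type and 5.94, 5.94, 6.02, 5.94 and 6.33 in the knockout. Every knockout array was above every wild type array there, by as little as 0.0098 at the nearest pair, a separation that 3.8% of all tested probe sets showed in this direction. The difference was 0.23 (SE 0.10, adjusted p 0.265 over all probe sets, limma). The correlation between both probe sets was −0.095, so they did not follow each other over the arrays, and no direction can be given for Jund.

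Egr1 encodes the zinc finger factor EGR1, which drives growth factor and tissue factor genes in injured vessels. It stood at 12.09, 12.87, 12.69 and 12.88 in wild type and at 12.37, 12.32, 12.95, 12.53 and 12.82 in the knockout. The lowest array was wild type replicate 1 and the highest knockout replicate 3. The difference was −0.035 (SE 0.19, 95% interval −0.47 to 0.40, adjusted p 0.940, limma). It was −0.21 without wild type replicate 1 (adjusted p 0.414) and 0.047 without wild type replicate 5.

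Egr2, also called Krox20, is known for its role in myelinating Schwann cells as well as in the early response. Probe set 1427682_a_at read 8.89, 10.57, 9.81 and 9.97 in wild type and 9.25, 8.64, 10.11, 9.94 and 9.48 in the knockout. The top array was wild type replicate 3, and the bottom ones were knockout replicate 2 and wild type replicate 1. Wild type replicate 3 was also the array with the highest Schwann cell markers, at a mean of 9.65 over 4 genes, against 7.97 to 9.23 on the others. Knockout replicates 4 and 1 came next, at 9.23 and 9.16, with Egr2 at 9.94 and 9.25. The markers were lowest on wild type replicate 5, at 7.97, with Egr2 at 9.97. The part of these cells in the Egr2 level was not tested. The difference between genotypes was −0.32 (SE 0.38, 95% interval −1.17 to 0.52, adjusted p 0.656, limma). With that top array left out it was −0.070 (adjusted p 0.946, limma), and with wild type replicate 1 left out −0.63 (adjusted p 0.281), so its size turned on single arrays. On all arrays the other probe set gave −0.38 (SE 0.33, adjusted p 0.562 over all probe sets, limma) and followed the same course over the arrays (r 0.99).

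The motif search covered only the 250 bases before each start, and no window of Fosl1, Egr1 or Egr3 was searched. Whether these genes hold a CArG box near their starts was not tested. Whether members have SRF sites further upstream was not tested. Among the 7 members whose windows were searched, the CArG box, the site of SRF, matched within these bases in Egr2 alone. A stretch of 30 bases that holds it, chr10:67537795-67537824 (plus strand, GRCm38.p6), is shown because SRF is the factor through which serum and stretch reach early genes. It lies in 3 of the 5 windows listed for this gene, which differ in start site, and a further window holds another match.
Egr2: gtCCATATATGGgcagcgaCGTCAcgggta
The capitals mark the CArG box and, after it, the core TGACG read on the other strand. In the window that starts furthest upstream of these 3, the box lies 72 to 63 bases before the start.

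Egr3, a relative that Egr1-inducing signals also switch on, read 9.16, 9.72, 9.36 and 9.83 in wild type on probe set 1436329_at. The knockout arrays read 9.12, 9.07, 9.69, 9.11 and 9.83. Each genotype had both low and high arrays, and the difference was −0.15 (SE 0.21, 95% interval −0.62 to 0.32, adjusted p 0.710, limma). It ran from −0.27 without wild type replicate 1 to −0.047 without wild type replicate 5. The dimmer probe set 1421486_at, at 5.44 to 5.69 in wild type and 5.60 to 6.06 in the knockout, differed by 0.14 (SE 0.11, adjusted p 0.521 over all probe sets, limma). The signs of both probe sets were opposite and their correlation was 0.26.

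**Figure D2:**
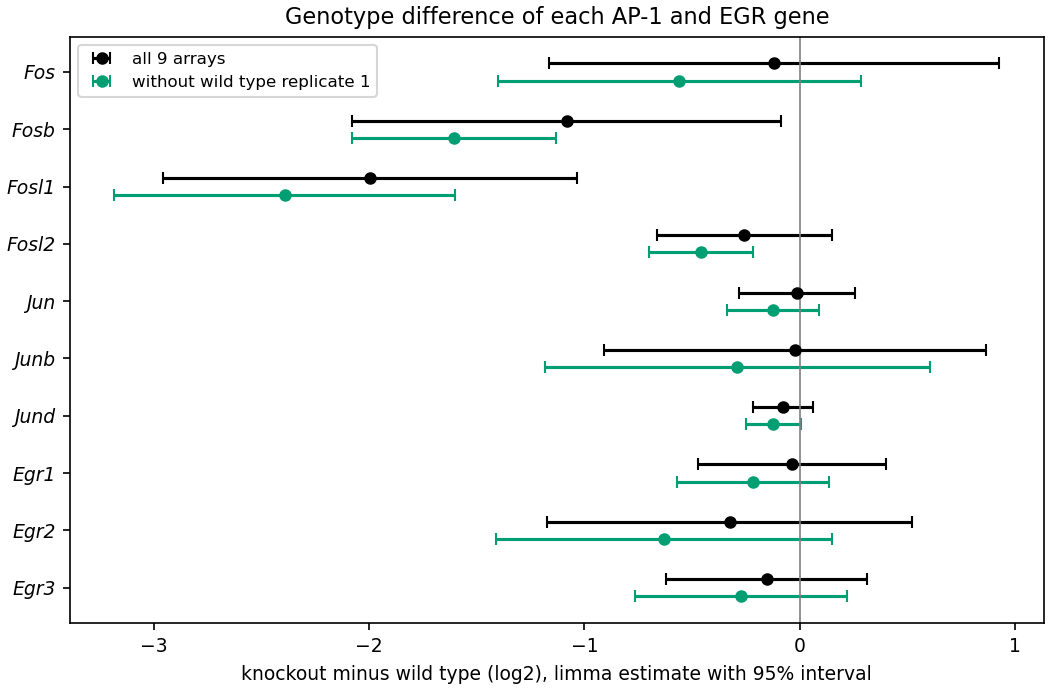
Knockout minus wild type difference (log2) of each AP-1 and EGR gene from the limma fit across all genes, with its 95% interval, on all 9 arrays (black) and without wild type replicate 1 (green). That array is the lowest wild type array for each gene shown, so all 10 estimates had to move to lower values without it. The intervals of Fosb and Fosl1 lie wholly below 0 in both fits, and that of Fosl2 only without this array.

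The members also varied together from array to array within each genotype. Relative to each gene's mean over all 9 arrays, the mean of the 10 members was −0.55, 0.50, 0.35 and 0.61 on wild type replicates 1, 3, 4 and 5. It was −0.44, −0.50, 0.031, −0.070 and 0.074 on knockout replicates 1 to 5. All 10 members lay under their own mean on wild type replicate 1 and on knockout replicates 1 and 2, and 0 did on wild type replicates 3 and 5. Wild type replicate 1 was the lowest wild type array for 14 of the 15 tested probe sets, the exception being the dim Egr3 probe set. The 3 lowest arrays thus came from both genotypes, and the 3 highest were all wild type.

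**Figure D3:**
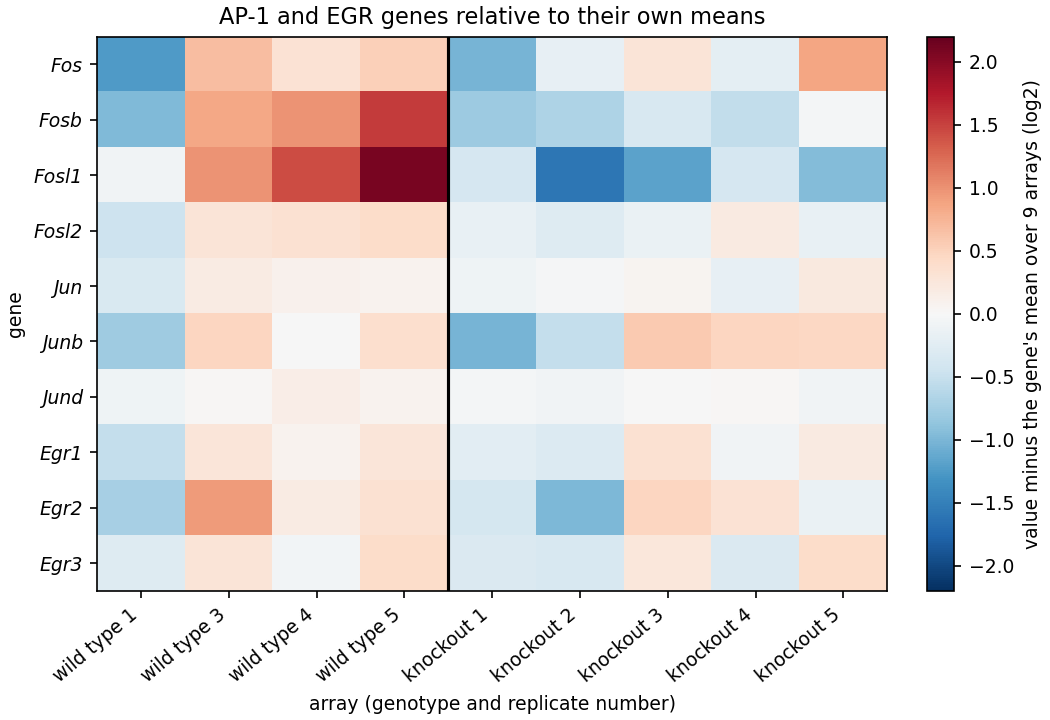
Value of each AP-1 and EGR gene on each array minus that gene's mean over the 9 arrays (log2, blue lower, red higher), with the black line between genotypes. Wild type replicate 1 and knockout replicates 1 and 2 are low for all 10 genes, and Fosl1 and Fosb are high on wild type replicates 3, 4 and 5 only.

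Over the 9 arrays the correlation between pairs of members ran from 0.19 to 0.92, with a median of 0.64 over 45 pairs and 0 pairs below 0. With each genotype centred on its own mean the median was 0.68, from 0.12 to 0.92. Fos was most like Jun (r 0.92, Spearman's rho 0.97) and Egr1 (r 0.89, rho 0.72). Fosl2 was most like Jund (r 0.91, rho 0.95) and Fosb (r 0.86, rho 0.85). The lowest values were those of Fosl1 with Junb (r 0.19) and with Jun (r 0.21). The genes on 1 array share their tissue and RNA preparation. Wild type replicate 1 and knockout replicates 1 and 2 were below the mean in all 10 members. The part of either in these correlations was not tested.

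Among the other tested genes, Ptgs2, the inducible cyclooxygenase, was most like the mean of the members, with r 0.99 over the 9 arrays (rho 0.93). It was 0.98 without the arrays farthest from the median, wild type replicates 1 and 5. Acbd5, a peroxisomal membrane protein, followed (r 0.97), then lipoprotein lipase Lpl (r 0.96), Atf3, a bZIP partner of JUN proteins (r 0.96), and Abra, an actin-binding activator of SRF signalling (r 0.95). With genotypes centred, Ptgs2 (r 0.98), Nr4a1 (r 0.98), the sphingosine kinase gene Sphk1 (r 0.97), Acbd5 (r 0.96) and Atf3 (r 0.96) led. They are the best of all 14321 tested genes less the members. Ptgs2 itself read 10.24, 11.52, 11.32 and 11.68 in wild type and 10.16, 10.26, 10.75, 10.89 and 10.96 in the knockout, a difference of −0.58 (SE 0.30, adjusted p 0.315, limma). Without wild type replicate 1 it was −0.90 (SE 0.21) and passed (adjusted p 0.0415, limma).

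The other genes of the pathway gave the same count of calls: 0 of 101 tested genes on 6 lists passed. The lists were bZIP partners, upstream kinases and promoter factors, feedback inhibitors, other immediate early genes, AP-1 targets and EGR targets. At an unadjusted p under 0.05 the share over all genes was 19.9%, with 7.12% lower and 12.8% higher. Calls named below without wild type replicate 1 come from the fit in which 7.34% of all genes passed, 2.1% as lower.

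Among 30 other immediate early genes 22 had lower and 8 higher knockout means, with a median difference of −0.21, and 7 were lower and 0 higher at an unadjusted p under 0.05. Homer1, whose short form is induced by activity, stood at 8.68, 9.53, 9.55 and 9.83 in wild type and at 8.14, 8.13, 8.30, 8.65 and 7.83 in the knockout, a difference of −1.19 (SE 0.24, adjusted p 0.105, limma). No knockout array reached a wild type array, a separation that 2.16% of all tested genes showed in this direction. Arc, an activity-induced gene, differed by −1.57 (SE 0.34, adjusted p 0.106, limma) and was likewise separated. Socs3, an inhibitor of cytokine signalling, differed by −0.80 (SE 0.23, adjusted p 0.142, limma) and was separated too.
Without wild type replicate 1, 10 of the 30 passed, all lower, where 2.1% of all genes passed as lower. They were Ier5, Arc, Homer1, Nfil3, Myc, Nr4a3, Plk3, Ptgs2, Socs3 and Klf6. Ier5, an early gene that acts on heat shock factor, had the smallest adjusted p there (−1.12, SE 0.088, adjusted p 0.0028, limma). Nfil3, a bZIP repressor, was at −1.24 (adjusted p 0.0119, limma) and the nuclear receptor gene Nr4a3 at −1.53 (adjusted p 0.0225).

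Of 15 tested bZIP partners 12 had lower knockout means (median −0.13), and 3 were lower at an unadjusted p under 0.05. Maff, a small MAF protein, differed by −1.09 (SE 0.37, adjusted p 0.173, limma), Creb5 by −0.43 (SE 0.16, adjusted p 0.201) and Batf3, better known from dendritic cells, by −0.24 (SE 0.081, adjusted p 0.164). Maff alone of these 15 passed once wild type replicate 1 was left out, at −1.48 (adjusted p 0.0195, limma).

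Of 21 tested upstream kinases and promoter factors 6 had lower and 15 higher knockout means (median 0.047), where 56.7% of all genes had a higher one, and 3 and 5 of them had an unadjusted p under 0.05. Crem, which encodes activators and the repressor ICER of cAMP responsive genes, differed by −0.76 (SE 0.19, adjusted p 0.132, limma). The p38α kinase gene Mapk14 differed by 0.27 (SE 0.081, adjusted p 0.147) and Mef2c, a promoter factor of muscle and early genes, by 0.25 (SE 0.077, adjusted p 0.153). There were 4 calls when wild type replicate 1 was left out: Crem and Mapk8 lower, Mapk14 and Creb1 higher.

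Feedback inhibitors were mixed, with 5 of 14 lower and 9 higher (median 0.036), and 1 each way at an unadjusted p under 0.05. Nab2, a corepressor of EGR proteins and an EGR target, differed by 0.22 (SE 0.080, adjusted p 0.191, limma), the ERK phosphatase gene Dusp5 by −0.67 (SE 0.28, adjusted p 0.223) and Dusp6 by 0.22 (SE 0.14, adjusted p 0.412). Dusp5 alone passed without wild type replicate 1 (adjusted p 0.039, limma).

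Target genes lay lower in 8 of 11 tested AP-1 targets (median −0.20) and in 8 of 11 EGR targets (median −0.13). At an unadjusted p under 0.05 there were 2 lower AP-1 targets, and 3 lower and 1 higher EGR targets. Among AP-1 targets, haem oxygenase Hmox1 differed by −0.43 (SE 0.12, adjusted p 0.136, limma), cyclin D1 (Ccnd1) by −0.28 (SE 0.10, adjusted p 0.193) and the urokinase receptor gene Plaur by −0.37 (SE 0.17, adjusted p 0.262). Among EGR targets, the cell cycle inhibitor gene Cdkn1a differed by −0.63 (SE 0.18, adjusted p 0.141, limma) and thrombospondin Thbs1 by −1.07 (SE 0.35, adjusted p 0.164). When wild type replicate 1 was left out, 0 AP-1 targets and 2 EGR targets passed, Cdkn1a and Vegfa (adjusted p 0.0338 and 0.0256, limma), both lower.

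Heat shock genes, which are also induced by handling and stress, were read beside the members. Their mean over 13 tested genes was 12.20, 12.42, 12.53 and 12.61 on the wild type arrays and 12.07, 12.11, 12.03, 12.12 and 12.03 on the knockout arrays, and 13 of 13 had lower knockout means (median difference −0.35). None passed (limma), with 10 lower at an unadjusted p under 0.05. The smallest p were those of the small heat shock protein gene Hspb1 (−0.54, SE 0.093, adjusted p 0.083, limma), the DNAJ cochaperone gene Dnaja1 (−0.37, SE 0.075, adjusted p 0.105) and the inducible HSP70 gene Hspa1a (−1.02, SE 0.24, adjusted p 0.118). Without wild type replicate 1, 7 of the 13 passed, all lower, where 2.1% of all genes passed as lower. They were Hspa1a, Bag3, Hspb1, Hspa1b, Dnajb1, Dnaja1 and Hsp90aa1. As with the members, wild type replicate 1 was the lowest of its group, but here it still lay above every knockout array. Their part in the differences of the members was not tested.

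Markers of other cell types varied between arrays too. The mean of 7 neuron markers was 11.38 on wild type replicate 3 and 9.67 on knockout replicate 1, against 5.02 to 8.14 on the others, so it was high on an array with high and on an array with low member values. Adipocyte markers (5 genes) ran from 10.63 to 11.19 in wild type, lowest on replicate 1, and from 10.06 to 11.06 in the knockout. Macrophage markers (6 genes) ran from 8.95 to 10.06 and from 9.08 to 9.45, and endothelial markers (6 genes) from 9.30 to 9.78 and from 9.17 to 9.49. Skeletal muscle markers (6 genes) were high on knockout replicate 3 alone, at 10.20 against 4.42 to 4.98 elsewhere. Smooth muscle markers (6 genes) lay between 12.69 and 12.96 in wild type and between 12.94 and 12.99 in the knockout.
Over all tested genes 43.3% had a lower knockout mean. Gene by gene, it was lower for 6 of 6 endothelial, 6 of 6 macrophage and 5 of 5 adipocyte markers. It was also lower for 5 of 5 brown adipocyte and 7 of 7 neuron markers, the same direction as the members. It was higher for 6 of 6 smooth muscle and 5 of 5 tested skeletal muscle markers. Other lists were mixed, with 5 of 6 cardiomyocyte, 4 of 6 fibroblast and 2 of 4 Schwann cell markers lower. The same held for 2 of 5 lymphocyte and 1 of 2 tested erythrocyte markers. None of these markers passed on all arrays (limma). At an unadjusted p under 0.05 the endothelial genes Cdh5 and Tie1, the macrophage gene Cd163, the adipocyte gene Pparg and the brown adipocyte gene Elovl3 were lower, and the smooth muscle genes Tagln, Smtn and Lmod1 higher. Without wild type replicate 1, Cdh5 (−0.41, adjusted p 0.030, limma), Pparg (−0.49, adjusted p 0.047) and Lmod1 (0.45, adjusted p 0.034) passed. The part of these cells in the results was not tested, and in whole aorta fewer cells of a type and less RNA per cell cannot be told apart.

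**Figure D4:**
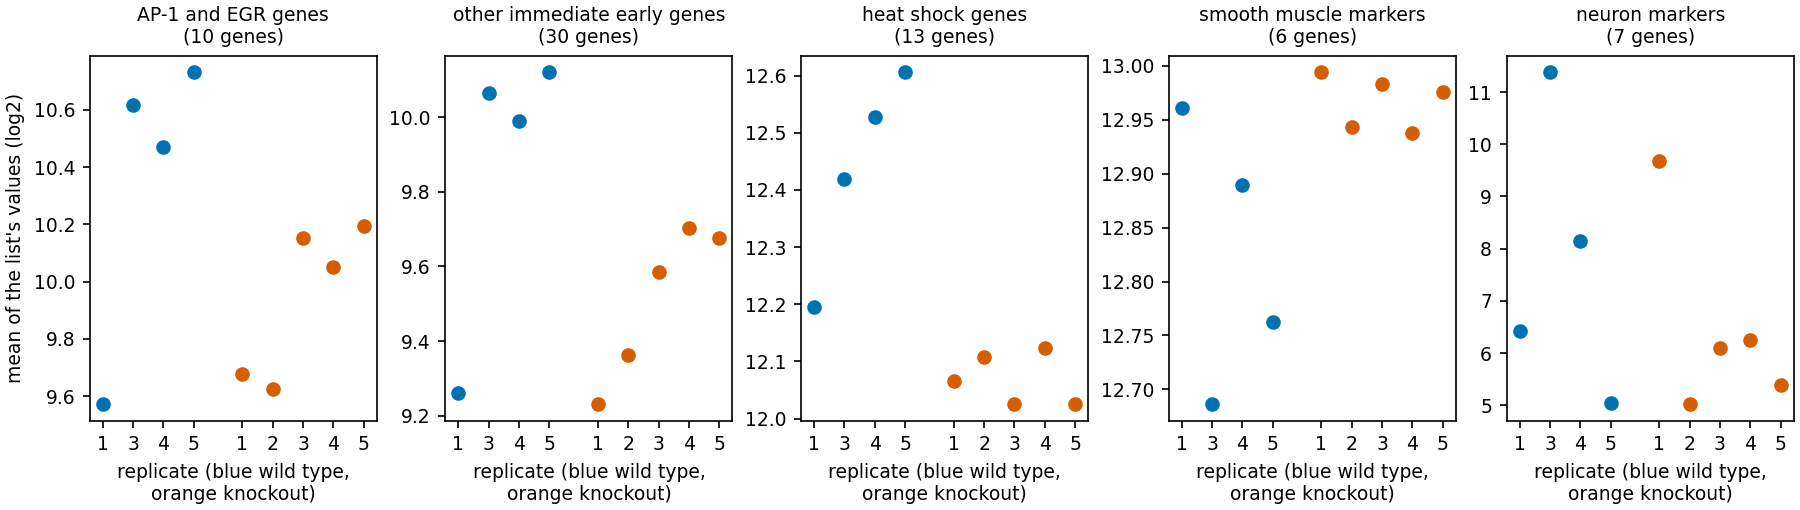
Mean log2 value per array of the 10 AP-1 and EGR genes, 30 other immediate early genes, 13 heat shock genes, 6 smooth muscle markers and 7 neuron markers, by replicate number (blue wild type, orange knockout); each panel has its own scale. Wild type replicate 1 lies below all knockout arrays for the AP-1 and EGR genes (9.57), within their range for the other early genes (9.26) and above them all for heat shock genes (12.20).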

How the data were processed

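The deposited values are log2 values per probe set, which the authors obtained with GCRMA, as the submitters' processing notes name it (background correction and normalization across arrays; version not given in the sources used here); the log2 scale is inferred from their range. Probe sets were named from the platform annotation, where 34945 of 45101 carry 1 gene symbol; 932 with several symbols were left out. Probe sets over 4 on at least 4 of the 9 arrays were tested (26504), and each gene was represented by its brightest one (14321 genes). The genotype difference was fitted in R 4.3.3 by limma 3.58.1 (lmFit, eBayes, no covariate), with Benjamini-Hochberg adjustment over all genes or, for further probe sets, over all tested probe sets. Differences are knockout minus wild type. Fits without an array kept the same genes and probe sets. The fit was tested on simulated data with noise drawn separately for each gene and array, which leaves out shifts shared between genes. The number of arrays limits the precision. The p-values set each difference against the spread between these replicates, which limma moderates across genes.

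All members were described; of each further list, the 3 tested genes with the smallest p were named, along with the 5 genes most like the mean of the members. Calls made without wild type replicate 1 and single markers were named after their values were seen. The members and lists were chosen with earlier results of these data known. Alternatives were other normalizations, floors, probe set rules, variance models, array weights, a replicate block and leaving out arrays. Promoter motifs were searched on both strands of the 250 bases before each start.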

Additional observations from a re-analysis of the deposited data

Results flagged for a closer look

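Within each genotype, an array was singled out when its gap to the nearest other array took up most of its group's range (Dixon's 95% limit). This met 4 of the 32 groups of member values, where chance gives about 1 in 20, and the probe sets are not independent. Fosl2 on 1437247_at was low on wild type replicate 1, at 11.88 against a next value of 12.61, and high on knockout replicate 4, at 12.52 against 12.19. The dim Jund probe set 1440265_at read 6.33 on knockout replicate 5, next to 6.02. The dim Egr3 probe set 1421486_at read 6.06 on the same array, next to 5.71. That array also had the highest value of the dim Fosl2 probe set.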

How the results depend on the processing

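The count of 0 members past the threshold held on all arrays under the other normalizations, floors, probe set rule, variance model and array weights, and with any array other than wild type replicate 1 left out. It was 3 without that array (Fosb, Fosl1 and Fosl2), so leaving out 1 array gave 0 to 3 members, 0 to 3 member probe sets, 0 to 18 of the 101 other pathway genes and 2 to 1051 of all genes, against 8 on all arrays. Over all genes the count was 19 with a floor of 6, 33 with trend and robust options and 73 with array weights, where 1 member probe set (1417487_at of Fosl1) and 2 pathway genes (Homer1 and Arc) passed. Without wild type replicates 1 and 3, an alternative added after seeing the data, 432 genes passed, with 2 members (Fosb and Fosl1), 2 member probe sets and 7 pathway genes. With the floor of 6, Fosl1 was not tested.

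Fosb, Fosl2, Egr2 and Egr3 kept a lower knockout mean under all 18 alternatives and Fosl1 under the 17 that tested it. Leaving out 1 array, the difference ran from −0.56 to 0.12 for Fos, from −0.12 to 0.046 for Jun, from −0.29 to 0.23 for Junb and from −0.21 to 0.047 for Egr1, so these 4 have no stable direction. It ran from −1.60 to −0.77 for Fosb, from −2.39 to −1.67 for Fosl1, from −0.46 to −0.17 for Fosl2, from −0.12 to −0.040 for Jund, from −0.63 to −0.070 for Egr2 and from −0.27 to −0.047 for Egr3. The mean of both probe sets gave 0.077 for Jund and −0.0081 for Egr3. The cause was not tested.

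The replicate number as a block, over the 4 numbers both groups share, gave 0 calls over all genes and 0 members. Junb at 0.10 and Egr1 at 0.035 were the same on these arrays with no block, that is, without knockout replicate 2, where 2 genes passed, so their change of sign came with leaving out that array. Over all tested genes, correlations of same-numbered deviations were −0.36, −0.15, 0.060 and 0.21. Of 8 samples, 2 matched best with their own number. On these 8 arrays the block lowered the SE of most members, from 0.52 to 0.18 for Fos and from 0.415 to 0.13 for Junb. It did not lower the SE of Fosl1 (0.43 without and 0.45 with the block) or Jund (0.069 and 0.071). Whether the numbers pair the samples cannot be told from these values.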
